A study of Mus musculus with 6 samples.

Results

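Cytosolic ribosomal protein genes code for the proteins of the large and small subunits of the ribosome that translates nuclear mRNAs. They were taken from the arrays by name: every probe whose platform gene symbol is Rpl or Rps followed by digits, with an optional a, l, x or y at the end, or is Rplp0, Rplp1, Rplp2 or Rpsa. Kinases of the Rps6k family, Rps19bp1 and symbols of pseudogenes were left out. This gave 90 of 37932 probes and 74 of 21874 genes, 47 of the large subunit and 27 of the small subunit. Of these genes 60 had 1 probe and 14 had 2 or more, whose scores were averaged.

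Ovarian tumours 0.5 to 1 cm across were collected from mice 24 h after they received a slow-release pellet. The pellet held placebo in 1 group (3 arrays) and RU486 in the other (3 arrays). RU486, also called mifepristone, is a steroid antagonist of the progesterone and glucocorticoid receptors. All 6 samples came from tumours of mice with the genotype labelled Pgrcre/+mPgrLsL/+, given as Pgrcre/+PgrBLsL/+ in the study's design text, so the placebo tumours carry the same alleles as the RU486 tumours. Pgrcre places Cre recombinase under control of the progesterone receptor gene, and LsL is a stop cassette that Cre removes, so that the B form of the receptor is expressed only in cells that use that gene. The ages of the mice were not used here. Whether the 6 arrays stand for 6 mice is not stated in the labels, and p-values measure only the spread between these samples, which may be technical.

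Each deposited value is a score, centred and scaled for its probe over the 6 arrays: 0 is the mean of that probe and 1 is 1 SD. A difference was taken as RU486 minus placebo, between the group means of a gene's score, and its size cannot pass 1.83. Scores are listed in the order of the arrays, 1 to 3 in each group. A difference is not a fold change, and scores of 2 genes on 1 array do not say which gene is expressed more. Whether the tumours express markers of ovarian cells at all cannot be read from such scores. Median scores of the arrays over all probes lay between -0.384 and 0.212, and no 2 arrays held the same values (0 pairs). In bulk tumour RNA, fewer cells of a type and less RNA per cell cannot be told apart.

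Most ribosomal proteins are made in equal numbers for assembly in the nucleolus, and their genes are known to be expressed together. Most of their mRNAs begin with a 5′ terminal oligopyrimidine (TOP) tract, an unbroken stretch of C and T (U in the mRNA). Through it the mTORC1 kinase and the RNA-binding protein LARP1 set how much of the mRNA is translated and stored. Dividing and growing cells spend a large share of their transcription on ribosomes. In the ovary, as in other tissues, most of the genes are used by all cell types and serve as a general readout of translational capacity.

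Unbroken runs of C and T near the annotated gene start are shown for some of the genes that the results below turn on. Rps14 and Rpl8, described below, are named without a sequence. RefSeq start sequences of mouse build GRCm38.p6, which run from 250 bases before to 50 bases after the annotated gene start, were at hand for 59 of the 74 members. For genes with several starts the first listed was used. In the stretch from 25 bases before to 50 bases after the start, 45 of the 59 (76.3%) held an unbroken pyrimidine run of at least 8 bases, compared with 27.1% of 27025 mouse genes. The lines below give 30 bases around the longest such run, 5′ to 3′ on the gene's strand, with the run in capitals.
Rpl26: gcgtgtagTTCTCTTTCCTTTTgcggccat
Rps10: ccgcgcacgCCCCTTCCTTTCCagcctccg
Rpl15: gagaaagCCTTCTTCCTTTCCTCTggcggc
Rps6: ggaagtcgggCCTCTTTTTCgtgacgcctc
Rpl10: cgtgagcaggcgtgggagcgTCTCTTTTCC
Rpl41: cgccattaaatagcagtaggCCTCCCTCTC
Rpl37: ggcgggggtgCTTTCTCTTCCggtctcttt
Rpl37a: cgcattgcgTCCCTTCCTCTTCggacttgg
Rpl35: gccccgCCCTTTCCTCTTTCTCTCgaacca
Rpl39: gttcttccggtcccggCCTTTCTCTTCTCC
Rpl39l: acacccactgcCTCTCCCTagctcccaggc
Rpl26, Rps10, Rpl15 and Rps6 are shown as members that followed the common array pattern described below. Rpl10, Rpl41, Rpl37, Rpl37a and Rpl35 are shown because their placebo and RU486 scores did not overlap. Rpl39 and Rpl39l are a pair of paralogs that parted. In order, these stretches lie at chr11:68901579-68901608 (+), chr17:27635227-27635256 (-), chr14:18270968-18270997 (-), chr4:86857349-86857378 (-), chrX:74270836-74270865 (+), chr10:128549119-128549148 (-), chr15:5116631-5116660 (+), chr1:72711274-72711303 (+), chr2:39005115-39005144 (-), chrX:37085173-37085202 (-) and chr16:10170192-10170221 (+). The run of Rps6 is 10 bases long and spans the annotated start, and that of Rpl35 is 18 bases long. The run of Rpl39l lies wholly before the annotated start, and those of Rpl26, Rpl10, Rpl41, Rpl37, Rpl37a and Rpl39 lie wholly after it, whereas a TOP tract begins at the first base of the mRNA. In Rpl10, Rpl41, Rpl39 and Rpl39l the run reaches an edge of the searched stretch, so its full length is not given, and in Rpl39l the pyrimidines go on past that edge. RefSeq starts can lie upstream of the first base that cells use, and a run is a description of these letters only.

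Other short motifs were counted on both strands of the same 300-base sequences. The ETS-factor core CCGGAAG occurred in 24 of the 59 members (40.7%) and in 9.12% of all genes. The Sp1 core GGGCGG occurred in 34 (57.6%) and in 35.9% of all genes. The YY1 core AAGATGGC occurred in 4 (6.78%) against 2.88%, the E-box CACGTG of MYC and its partners in 5 (8.47%) against 7.24%, and TATAAA in 5 (8.47%) against 14.2%. Each motif was counted on its own, so matches of different motifs can overlap. These are counts of letters, and no binding was measured.

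The ribosomal protein genes moved together from array to array, and the array pattern cut across the treatment. The median score of the 74 genes was 0.55, -0.43 and 0.47 in placebo, and 1.10, -0.31 and -1.30 in RU486. The highest and the lowest of the 6 arrays were thus both RU486 arrays, with the 3 placebo arrays between them. The arrays with the highest member medians, RU486 array 1 and placebo array 1, had the lowest medians of all genes, at -0.46 and -0.41. RU486 array 1 held the highest score of 45 members (60.8%), compared with 9.02% of all genes. RU486 array 3 held the lowest score of 60 members (81.1%), compared with 14.4% of all genes. Both held for 40 members (54.1%) and for 1.8% of all genes. In 70 of the 74 members RU486 array 1 was above RU486 array 3, by a median of 2.45 SD, whereas 33.5% of all genes showed that order and the median gap over all genes was -0.24 SD. This pattern was noticed in the scores and is given as a description.

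**Figure D1:**
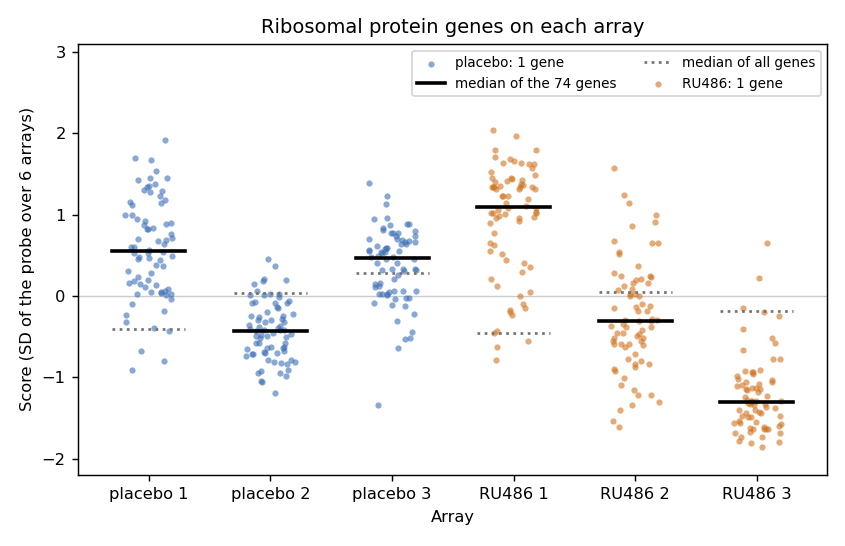
Scores of the 74 ribosomal protein genes on each array (vertical axis, SD of the probe over 6 arrays; each point is 1 gene, spread sideways for visibility), with the median of the 74 genes as a black bar and the median of all genes as a dotted grey bar. The black bars run from 1.10 on RU486 array 1 to -1.30 on RU486 array 3, with the 3 placebo arrays between.

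Both subunits showed the same array medians to within a small part of an SD. For the 47 large-subunit genes they were 0.57, -0.42 and 0.53 in placebo and 1.08, -0.31 and -1.33 in RU486 arrays 1 to 3. For the 27 small-subunit genes they were 0.54, -0.48 and 0.33 in placebo and 1.15, -0.35 and -1.29 in RU486. RU486 array 3 was lowest for 38 of the 47 and for 22 of the 27. As a measure of how closely a member followed the family, its scores were correlated over the 6 arrays with the mean of the other members. Pearson's r had a median of 0.86 over the members and was above 0.8 in 46 of the 74, compared with 1.13% of all genes against the mean of the members. The 6 points of each r share their arrays and carry no p. Of the members with a start sequence, the 45 with a pyrimidine run had a median r of 0.86 and the 14 without one 0.88. The 24 with the ETS core had 0.82 and the 35 without it 0.89. These groups were not tested against each other.

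The closest followers were Rpl35a and Rpl26, both at r = 0.99. Rpl35a (Entrez gene 57808) is one of the genes that are mutated in Diamond-Blackfan anaemia of humans. Its scores were 0.70, -0.64 and 0.33 in placebo and 1.37, -0.37 and -1.40 in RU486. Rps23, which sits at the decoding centre of the small subunit, had 0.52, -0.63 and 0.32, and 1.33, 0.02 and -1.56 (r = 0.98). In both genes the RU486 arrays enclosed the placebo arrays. For Rpl35a the groups averaged 0.134 ± 0.692 and -0.134 ± 1.40 (SD, n = 3), so the spread within RU486 was larger than the gap between the groups.

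**Figure D2:**
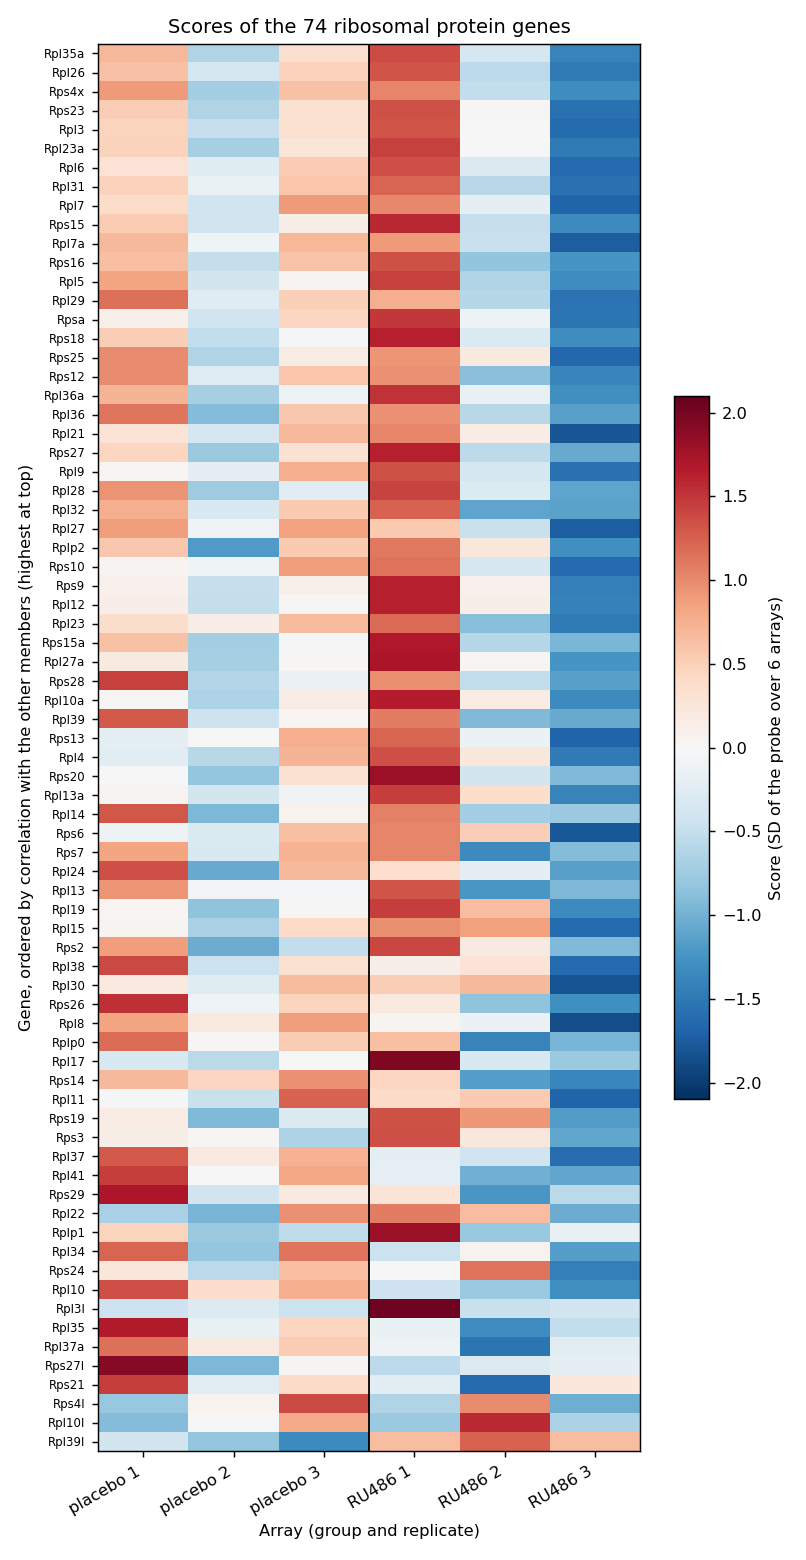
Heat map of the scores of all 74 members (rows) on the 6 arrays (columns; colour, SD of the probe over 6 arrays), with rows ordered by correlation with the other members and a vertical line between the groups. Most rows are red on RU486 array 1 and blue on RU486 array 3. Near the bottom, Rpl39l, Rpl10l, Rps21 and Rps27l are not higher on RU486 array 1 than on RU486 array 3, and Rps4l is below 0 on both.

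Between treatments, no member passed. The comparison asks which of these transcripts differ 24 h after the RU486 pellet. In limma's ordinary statistic over 21874 genes, with Benjamini-Hochberg adjustment, 0 of 74 members had an adjusted p under 0.05 (0.00457% of all genes did), and the smallest adjusted p of a member was 0.292. At an unadjusted p under 0.05, 2 members were lower with RU486 (2.70%, against 7.07% of all genes) and 1 was higher (against 5.24% of all genes). The scores of the groups did not overlap in 7 members that were lower (9.5%, against 10.8% of all genes) and in 1 that was higher (1.4%, against 11.2%). These shares are at or under the background. Of the 74 differences 50 were negative and 24 positive, with a median of -0.40, where the median over all genes was -0.06. Treatment accounted for a median of 7.03% of the variance of a member over the 6 arrays, and for 20.3% over all genes.

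The direction of the median rested on single arrays. Without RU486 array 1 the median difference of the members was -0.99, and 27 members were separated and lower, compared with 12.4% of all genes, against 1 higher (15.7% of all genes). Without RU486 array 3 the median was 0.30, with 8 members separated and lower (14.7% of all genes) and 7 higher (14.9%). Without placebo array 1 or placebo array 3 it was -0.13 and -0.17, and without placebo array 2 it was -0.64. With array weights it was 0.19. No member passed in any of these fits (0 of 74 in limma).

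The members with separated groups were Rpl10, Rpl41, Rpl37, Rps14, Rpl37a, Rpl35 and Rpl8, which were lower, and Rpl39l, which was higher. Rpl10 (Entrez gene 110954), an X-linked gene whose protein joins the large subunit late in assembly, had the largest negative difference. Its scores were 1.35, 0.37 and 0.77 in placebo and -0.43, -0.77 and -1.29 in RU486. All 3 RU486 arrays lay below all 3 placebo arrays. The group means were 0.830 ± 0.496 and -0.830 ± 0.433 (SD, n = 3), with a difference of -1.66 (SE 0.380, limma adjusted p = 0.326). Unlike most of the family, Rpl10 was not high on RU486 array 1, and its r with the other members was 0.57.

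Rpl41, which codes for the shortest protein of the ribosome, had placebo scores of 1.45, 0.02 and 0.81 and RU486 scores of -0.17, -1.01 and -1.09. Its difference was -1.52 (SE 0.509, limma adjusted p = 0.390). Rpl37 and Rpl37a code for small zinc-binding proteins of the large subunit. Rpl37 had 1.28, 0.20 and 0.74 against -0.20, -0.42 and -1.60, a difference of -1.48 (SE 0.536). Rpl37a averaged 1.16, 0.18 and 0.53 over its 2 probes in placebo, and -0.10, -1.53 and -0.24 in RU486. The 2 probes parted on RU486 array 1, at -0.97 and 0.76, so the separation of Rpl37a is an average of unlike probes. Rpl35, a protein at the exit of the nascent chain tunnel, had 1.67, -0.15 and 0.46 against -0.15, -1.30 and -0.52. Its placebo array 2 and RU486 array 1 both stood at -0.15, so its groups barely part.

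Rps14, a small-subunit protein whose gene is lost in a human myelodysplastic syndrome, had 0.68, 0.45 and 0.95 in placebo and 0.45, -1.16 and -1.37 in RU486. Here too RU486 array 1 almost touched the placebo group. Rpl8, whose protein lies near the peptidyl transferase centre, had 0.84, 0.21 and 0.88 against 0.05, -0.12 and -1.86. Its difference of -1.28 (SE 0.649) came mainly from RU486 array 3, the array that was low for most of the family. With the arrays centred on their medians, 2 members were separated and lower, and after quantile normalization 3 were. The shares of all genes in these fits are not given here.

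**Figure D3:**
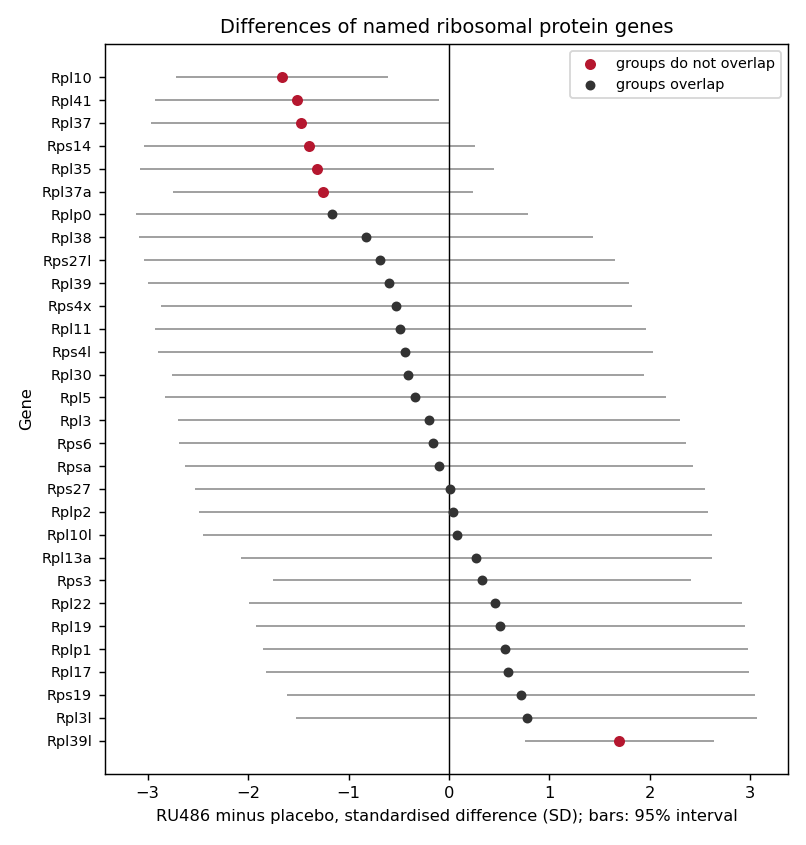
Differences (RU486 minus placebo, SD) of the 30 named ribosomal protein genes with 95% intervals from the fit with 4 residual degrees of freedom; red points mark genes whose groups do not overlap. Intervals exclude 0 for Rpl10, Rpl41 and Rpl39l before adjustment, and those of most other genes reach far to both sides. The intervals do not take into account that a difference of scaled scores cannot pass 1.83.

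In 21 members the highest score lay on placebo array 1 (28.4%, compared with 8.80% of all genes). All 21 differences were negative. A highest score on a placebo array itself pushes the difference down, so these signs are not a separate result. The 21 include Rpl10, Rpl41, Rpl37, Rpl37a and Rpl35, which as separated and lower genes must peak on some placebo array. Also among the 21 are Rps29, Rps26, Rps21 and Rpl38. Rpl38 guides the translation of some Hox mRNAs in mouse embryos. It had 1.38, -0.46 and 0.31 in placebo and 0.12, 0.28 and -1.64 in RU486, with overlapping groups and a difference of -0.82 (SE 0.814). Placebo array 1 was also the array with the highest median of the 4 measured red cell markers (2.01, with -0.53 to -0.05 on the others) and of the 7 neutrophil markers (1.26, with -0.65 to 0.16 on the others). Of the neutrophil markers, Ly6g, Ltf and Retnlg peaked on other arrays. The median of the 6 skeletal muscle markers was highest on placebo array 1 too, at 0.58, close to 0.52 on placebo array 3. Only 3 of these 6 were above 0 on placebo array 1. The part of these cells in the scores of the 21 members was not tested.

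Genes of known roles within the ribosome followed the family to different degrees. Rplp0, Rplp1 and Rplp2 form the stalk that recruits elongation factors. Rplp2 followed closely (r = 0.91), with 0.57, -1.19 and 0.55 in placebo and 1.11, 0.24 and -1.29 in RU486. Rplp0 had 1.18, 0.02 and 0.54 against 0.63, -1.40 and -0.98, a difference of -1.16 (SE 0.704). Rplp1 had 0.47, -0.78 and -0.53 against 1.80, -0.80 and -0.15, a difference of 0.56 (SE 0.869). The groups overlapped in all 3 stalk genes. Unadjusted p was 0.174 for Rplp0, 0.554 for Rplp1 and 0.965 for Rplp2 (limma), so no difference was distinguishable from 0.

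Rpl5 and Rpl11 bind the smallest RNA of the large subunit and, when free, hold back MDM2, the ligase of p53. Rpl5 had 0.83, -0.39 and 0.06 in placebo and 1.43, -0.63 and -1.31 in RU486, with a difference of -0.33 (SE 0.897). Rpl11 had -0.04, -0.46 and 1.23 against 0.40, 0.54 and -1.67, with a difference of -0.49 (SE 0.880). Both were lowest on RU486 array 3, and their highest arrays differed. Rps6, the substrate of the S6 kinases, had -0.10, -0.30 and 0.64 against 1.03, 0.51 and -1.78, with a difference of -0.16 (SE 0.909, 95% interval -2.69 to 2.36). RU486 array 1 was its highest and RU486 array 3 its lowest array, with RU486 array 2 among the placebo arrays.

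Rps19, the gene most often mutated in Diamond-Blackfan anaemia of humans, had 0.16, -0.93 and -0.31 in placebo and 1.34, 0.91 and -1.18 in RU486. Its difference was 0.72 (SE 0.840), and RU486 array 3 alone lay below all placebo arrays. Rpl22, whose protein is dispensable for translation in mice but not for T cell development, had -0.68, -0.98 and 0.96 against 1.08, 0.65 and -1.03. Its difference was 0.46 (SE 0.883). Rpsa, which is also known as a laminin receptor, followed the family with r = 0.94 and a difference of -0.10 (SE 0.911). Rpl17 and Rpl19 of the large subunit also had positive differences, 0.58 (SE 0.865) and 0.51 (SE 0.876), and both peaked on RU486 array 1, where they stood at 1.97 and 1.45. Rps27a is not analysed here.

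The 5 measured paralogs of other members departed from the family, with r between -0.24 and 0.56. Of the other members, Rps21 (r = 0.24), Rpl37a (r = 0.37) and Rpl35 (r = 0.50) also lay in that range. Rpl39l (Entrez gene 68172), the paralog of Rpl39 that male germ cells use, was the 1 member whose separated groups were higher with RU486. Its scores were -0.39, -0.81 and -1.34 in placebo and 0.65, 1.24 and 0.65 in RU486. All 3 RU486 arrays lay above all 3 placebo arrays. Its group means were -0.847 ± 0.478 and 0.847 ± 0.342 (SD, n = 3), with a difference of 1.69 (SE 0.339, limma adjusted p = 0.292), and its r with the family was -0.24. It stayed positive in every alternative tried and passed in none. Rpl39 itself had 1.29, -0.44 and 0.05 against 1.08, -0.92 and -1.06, with overlapping groups and a difference of -0.60 (SE 0.862).

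Rpl10l, a retrogene copy of Rpl10 that serves male meiosis, had -0.91, -0.01 and 0.80 in placebo and -0.79, 1.57 and -0.66 in RU486, with a difference of 0.08 (SE 0.912). Where Rpl10 had separated groups, those of Rpl10l overlapped throughout. Rpl3l replaces Rpl3 in heart and skeletal muscle. It had a score of 2.04 on RU486 array 1 and scores from -0.47 to -0.29 on the other 5 arrays, so that 1 array holds nearly all of its variation. Rpl3 followed the family (r = 0.98), with 0.46, -0.49 and 0.33 against 1.32, -0.01 and -1.61.

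Rps27l, a p53-induced paralog of Rps27, stood out on placebo array 1 with 1.92, against -0.94 and 0.06 on the other placebo arrays and -0.55, -0.28 and -0.20 on the RU486 arrays. Rps27 followed the family (r = 0.93) with a difference of 0.01 (SE 0.913). Rps4l had -0.80, 0.06 and 1.39 against -0.63, 1.00 and -1.02 (r = 0.09), and its relative Rps4x, an X-linked gene, followed with r = 0.98 and a difference of -0.53 (SE 0.844). Of the 69 members other than these 5 paralogs, 68 were higher on RU486 array 1 than on RU486 array 3. The exception was Rps21, at -0.23 and 0.22.

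**Figure D4:**
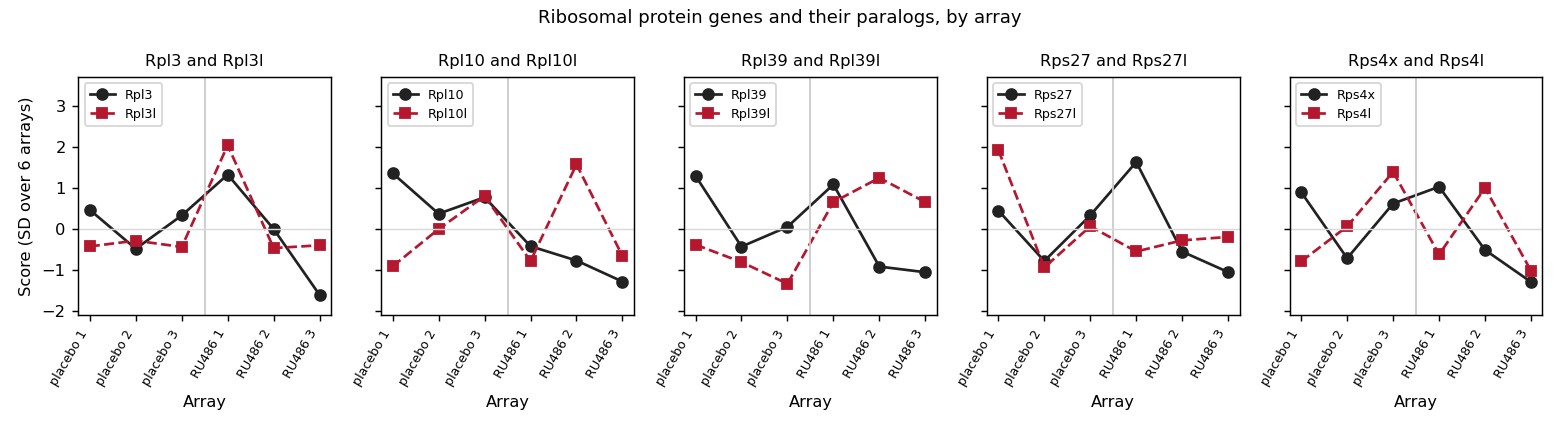
Scores of 5 ribosomal protein genes (black circles) and their paralogs (red squares) on the 6 arrays (vertical axis, SD over 6 arrays; the vertical line parts placebo from RU486, and lines only join the points of a gene). Rpl39l lies below 0 on the 3 placebo arrays and above 0 on the 3 RU486 arrays, and Rpl3l has its high score on RU486 array 1 alone.

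Probes of the same gene mostly agreed. Among the 14 members with 2 or more probes, the differences of a gene's probes spread by 0.0228 SD in Rpl14 to 0.927 SD in Rpl30. Rpl30 had -0.87 at one probe and 0.06 at the other, with -1.92 and -1.69 on RU486 array 3, so both were low there. Rps3, which is also a DNA repair enzyme in vitro, had one probe at -1.62 on placebo array 3, where its other probe had 0.33. The 2 probes of Rpl13a had 0.08 and 0.47, and those of Rps4x had -0.68 and -0.37. Rps24, which is spliced into several forms, had 4 probes. Of these, 3 shared one pattern, with -1.60 to -1.65 on RU486 array 3, and one had its lowest score on RU486 array 1, at -1.04.

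Ribosomal protein genes have many processed copies in the genome, whose sequences are close to the mRNA, so a probe may read both. Probes named for 21 ribosomal protein pseudogenes, which are not members, had array medians of 0.33, -0.51 and 0.23 in placebo and 1.42, -0.39 and -1.07 in RU486. RU486 array 1 was highest for 14 of the 21 and RU486 array 3 was lowest for 14. This is the order seen in the members, and signal from genes and copies cannot be told apart here.

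Ribosomal components and relatives that the naming rule leaves out were seen in 5 genes, all with negative differences (median -1.01). Rpl22l1, a paralog of Rpl22, had 1.10, 0.46 and 0.98 in placebo and -0.54, -0.59 and -1.41 in RU486. Its groups were separated, with a difference of -1.69 (SE 0.344, limma adjusted p = 0.295), where Rpl22 had overlapping groups. Fau, which codes for a small-subunit protein fused to a ubiquitin-like domain, had 1.14, -0.49 and 0.81 against 0.68, -1.15 and -0.997. Rps3a1 had -1.10 on RU486 array 3 and 1.39 on RU486 array 1, as in the family. Rpl7l1 and Rpl36al stood at -1.17 (SE 0.702) and -1.01 (SE 0.762), with overlapping groups.

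Other mRNAs known to start with a TOP tract showed part of the same order. Of 20 such genes, which include elongation factors and the poly(A)-binding protein gene Pabpc1, RU486 array 1 was highest for 11 (55%) and RU486 array 3 lowest for 15 (75%), with both for 7. Their medians were -0.26, -0.23 and 0.51 in placebo and 0.94, 0.24 and -1.29 in RU486. Eef2, the translocation factor, had 0.39, -0.25 and 0.23 against 1.63, -0.82 and -1.19 and was the plainest example named here (r = 0.92 with the members). Eef1g had 0.39, 0.46 and 0.74 against 0.67, -0.46 and -1.80. None of the 20 had an unadjusted p under 0.05 (0 lower, 0 higher in limma). Separated groups were seen in 0 that were lower (against 10.8% of all genes) and in 1 that was higher (5%, against 11.2%). The higher one was the initiation factor gene Eif4b, at 1.40 (SE 0.586). Eif3e stood at 1.30 (SE 0.643), and the median of the list was 0.07.

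Nuclear genes for the mitochondrial ribosome, a separate machine, did not share the array order. Over 78 Mrpl and Mrps genes the medians were -0.40, 0.60 and 0.38 in placebo and -1.05, 0.41 and -0.15 in RU486. RU486 array 1, the highest for cytosolic ribosomal protein genes, was thus the lowest array for the mitochondrial ones. The median of all genes was also lowest on that array, at -0.46, and 27.2% of all genes had their lowest score there. RU486 array 1 was highest for 5 of the 78 (6.4%) and RU486 array 3 lowest for 12 (15.4%), both near the shares of all genes. Their median difference was -0.33, and at an unadjusted p under 0.05 there were 6 lower genes (7.7%, near the 7.07% of all genes) and 0 higher ones (against 5.24%), with 0 after adjustment in limma. The 3 of smallest p are given as values only. Mrps25 stood at -1.71 (SE 0.323), Mrps6 at -1.66 (SE 0.385) and Mrpl17 at -1.60 (SE 0.438).

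The 53 eukaryotic initiation factor genes had medians of -0.38, 0.36 and 0.78 in placebo and -0.29, 0.36 and -0.77 in RU486. RU486 array 3 was lowest for 23 of them (43.4%) and RU486 array 1 highest for 6 (11.3%). Their median difference was -0.43, and at an unadjusted p under 0.05 there were 7 lower genes (13.2%, against 7.07% of all genes) and 1 higher one (against 5.24% of all genes), with 0 left after adjustment (limma). Eif2b2 and Eif2b1, subunits of the exchange factor for the initiation factor that brings the initiator tRNA, stood at -1.77 (SE 0.228) and -1.65 (SE 0.387). Eif2s2, a subunit of that factor, stood at -1.75 (SE 0.264). These 3 genes had separated groups and are among the 9 of the 53 that were separated and lower (17%, against 10.8% of all genes). A further 2 were separated and higher (3.8%, against 11.2% of all genes), and most initiation factor genes overlapped. Whether the lists differ was not tested.

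Genes grouped here as S6 kinases and the mTORC1 and LARP1 axis did not follow the family. Of 16 measured genes of the S6 kinases and the mTORC1 and LARP1 axis, RU486 array 1 was highest for 0 and RU486 array 3 lowest for 2. Their medians were -0.44, 0.49 and 0.42 in placebo and -1.02, 0.01 and -0.39 in RU486. On RU486 array 1 the median of all genes was -0.46, also its lowest. At an unadjusted p under 0.05, 5 were lower (31.2%, against 7.07% of all genes) and 0 higher (against 5.24%), and none passed over all genes (0 in limma). Larp4, a relative of LARP1 that binds poly(A) tails, stood at -1.70 (SE 0.334), Rheb, the activator of mTORC1, at -1.64 (SE 0.400) and Rps6kb2, an S6 kinase gene, at -1.53 (SE 0.496). The kinase gene Rps6ka5 and Eif4ebp2, a translational repressor, were the other two, at -1.52 (SE 0.503) and -1.50 (SE 0.519). The list did not move as a whole, with 9 negative and 7 positive differences. Mtor, Rptor and Larp1 had overlapping groups and stood at -1.31, 0.30 and -1.20. Among the positive ones, Akt1s1 stood at 1.03 and Eif4ebp1 at 0.85. The count of 5 became 2 without placebo array 2 or without RU486 array 1, and 3 without any of placebo array 3, RU486 array 2 or RU486 array 3. It was 3 with arrays centred on their median or quantile normalized, and 2 with the replicate block. The shares of all genes in these alternatives are not given here.

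Dedicated chaperones and assembly partners of ribosomal proteins were measured in 15 genes, with a median difference of -0.70. RU486 array 3 was lowest for 9 of the 15 (60%), with a median of -1.16 there, and RU486 array 1 was highest for 1. The list thus shared the family's low array, and its median on RU486 array 1 was -0.24. None was at an unadjusted p under 0.05 (0 lower, 0 higher in limma). Heatr3, which imports RPL5, stood at -1.30 (SE 0.639), and Ltv1, which acts in assembly of the small subunit, at -1.27 (SE 0.658). Pdcd2, a chaperone of a small-subunit protein, had separated groups and stood at 1.43 (SE 0.566). Rps19bp1, a partner of RPS19 that the naming rule leaves out, was highest on RU486 array 2 and had a difference of -0.47 (SE 0.882).

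**Figure D5:**
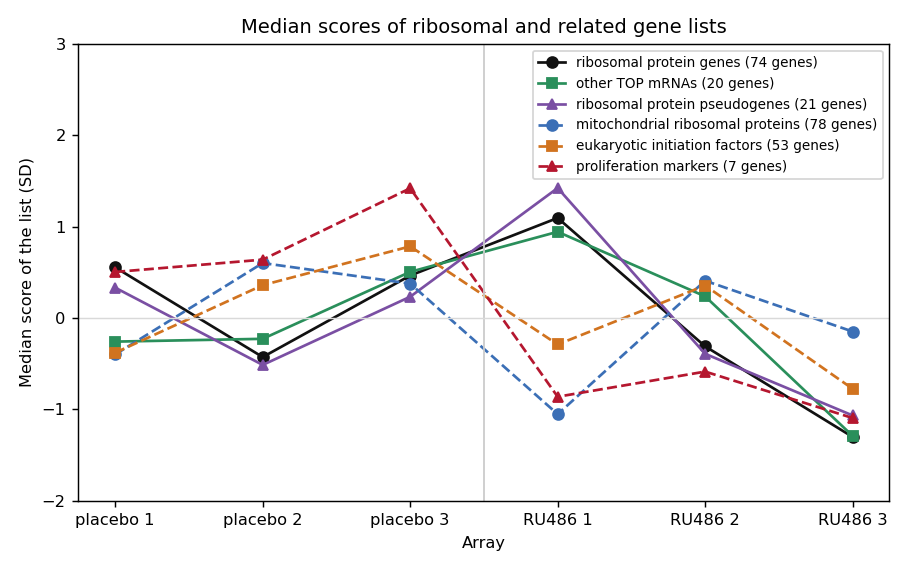
Median score of 6 gene lists on each array (vertical axis, SD; the vertical line parts placebo from RU486, and lines only join the points of a list). Cytosolic ribosomal protein genes, their pseudogenes and other TOP mRNAs peak on RU486 array 1 and are lowest on RU486 array 3, whereas the mitochondrial ribosomal proteins are lowest on RU486 array 1 and the proliferation markers are lower on all 3 RU486 arrays. The median of all genes, not drawn here, is also lowest on RU486 array 1, at -0.46.

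Markers of proliferation and of cell types were set beside the family. The 7 proliferation markers, among them Mki67 and Top2a, had medians of 0.50, 0.64 and 1.42 in placebo and -0.86, -0.59 and -1.09 in RU486. On RU486 array 1 they were thus at -0.86 where the ribosomal protein genes were at 1.10, and both were low on RU486 array 3. Over 12 marker lists with 70 measured genes, RU486 array 1 was highest for 2 genes (against 9.02% of all genes) and for the median of 0 lists. RU486 array 3 was lowest for 25 of the 70 genes (against 14.4% of all genes) and for the median of 6 lists. The 25 include all 7 proliferation markers, which were low on all 3 RU486 arrays. Among the 6 lists, macrophage markers had -0.89, T and NK cell markers -0.98 and fibroblast markers -0.81 on RU486 array 3. On RU486 array 1, where the ribosomal protein genes were highest, these lists were also below 0, at -0.71, -0.52 and -0.52. Neutrophil and red cell markers were lowest on RU486 array 3 by little, at -0.65 and -0.53, with -0.63 and -0.52 on RU486 array 1. The part of these lists in the low scores of the ribosomal protein genes on RU486 array 3 was not tested.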

How the data were processed

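Total RNA of the 6 tumour samples was labelled with Cy3 and hybridised to 1-colour Agilent arrays, per the labels. The deposited score of a probe was centred and scaled over the 6 arrays, as found from the values (mean 0 and SD 1 for each probe, largest score 2.04). The submitters' processing notes name Partek, and for background correction, normalization, filters and the scale before centring the method is not given in the sources used here. Higher scores were taken as brighter probes. Signal over background is unknown, and the number of arrays limits the precision. The labels give no batch, and none was fitted.

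Symbols came from the platform annotation (24903 probes with 1 symbol, 13029 with none listed, 0 with several), and the Entrez IDs of all 74 members matched the RefSeq table of GRCm38.p6 with 0 changed symbols. Scores were averaged by symbol (4 symbols stand for 2 Entrez IDs each). Each gene was fitted in limma 3.58.1 (R 4.3.3) with treatment as its only term over the 6 arrays. The statistic was the ordinary, unmoderated one (4 residual degrees of freedom). P-values are two-sided, with Benjamini-Hochberg adjustment over all genes and a threshold of 0.05. The fit was tested on simulated data. SE and SD are in score units, and correlations were computed in numpy.

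Named genes are any member past the threshold, the 6 members of smallest p in each direction, paralog pairs, a panel by role, the 5 members whose probes spread most and the 3 genes of smallest p in each related list. Rpl8, Rpl26, Rpl35a, Rpl15, Rps10, Rps23, Rps21, Rps26, Rps29, Rpl14, Rps24, Fau, Rps3a1, Eef2, Rps6ka5, Eif4ebp2 and Rps19bp1 were added after their values were seen. Members and lists were chosen with earlier results of these data known. The pseudogene list, the start-region features, the correlation with the family and the counts of highest and lowest arrays were chosen after seeing the scores. Alternatives were the first probe of a gene, a fit per probe, centring or quantile normalization of arrays, eBayes, array weights, a replicate block, wider membership and leaving out each array.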

Additional observations from a re-analysis of the deposited data

How the results depend on the processing

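No member passed over all genes in any alternative run (0 in limma, with the per-probe fit and eBayes included). The 2 members lower at an unadjusted p under 0.05 were 1 with arrays centred, quantile normalized or weighted, and 6 with the replicate block, and ranged from 1 to 6 with single arrays left out. The 1 higher member was 1 to 2. The 7 separated and lower members were 2 with arrays centred and 3 with quantile normalization, and 7 to 27 with single arrays left out. They were 14 without placebo array 2, and 27 without RU486 array 1 (against 12.4% of all genes). The 1 separated and higher member was 1 to 7, with 7 without RU486 array 3 (against 14.9% of all genes). Further shares of all genes in the alternatives are not given here. The other counts of the alternatives therefore cannot be read against a background. The median difference of -0.40 ranged from -0.99 to 0.30 and was 0.19 with array weights. With arrays centred, quantile normalized, 1 probe per gene or the wider membership, RU486 array 1 was highest for 42 to 46 members and RU486 array 3 lowest for 51 to 63, alternatives chosen after seeing the data. Same-numbered arrays of the groups deviated from their group means with correlations of 0.25, 0.05 and -0.27. The labels do not say whether the numbers pair the samples, and these correlations cannot decide it.

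The sign of 19 of the 48 named genes turned under some alternative, and 0 of these had an unadjusted p under 0.05. With array weights the differences were 0.22 for Rpl3, -0.48 for Rpl10l, 0.16 for Rpl39, 0.22 for Rps27l, 0.26 for Rps4x, 0.25 for Rpl5 and 0.26 for Rpsa. Rpsa had 0.019 with arrays centred, Rpl30 had 0.057 at its first probe, and Rps27 had -0.00011 with quantile normalization. With single arrays left out the ranges were -0.049 to 1.20 for Rpl3l, -0.25 to 1.12 for Rpl17, -0.20 to 1.10 for Rplp1, -0.085 to 1.31 for Rpl19, -0.91 to 0.56 for Rpl3, -0.68 to 0.50 for Rpl10l, -0.80 to 0.54 for Rps27, -1.33 to 0.10 for Rps27l, -1.04 to 0.15 for Rps4l, -0.54 to 0.70 for Rplp2, -1.13 to 0.24 for Rpl5, -0.88 to 0.23 for Rpl11, -0.72 to 0.69 for Rps6, -0.87 to 0.64 for Rpsa, -0.85 to 0.40 for Rpl30, -0.38 to 1.05 for Rpl13a and -0.27 to 0.96 for Rps3. The cause of these turns was not tested beyond the fewer arrays used.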
